A study of Homo sapiens with 2 samples.

Results

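Segmental duplications are long blocks of the genome that exist in several nearly identical copies, and some carry gene families that expanded in the ape and human lineages. The rows described here are those of the deposited gene table that name a gene of 6 such families: NBPF, GOLGA6, GOLGA8, SPDYE, GUSBP and NPIP. They were picked by the start of the gene symbol, and they number 52 of the 23608 rows. NBPF has 13 rows, GOLGA6 has 11, GOLGA8 has 10, SPDYE and GUSBP have 8 each and NPIP has 2. The families were chosen because they were known to be low in ribosome profiling relative to RNA sequencing, so every level and ratio between the libraries is given as a description, with no test.

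The study set 1 ribosome profiling library beside 1 RNA sequencing library, both from SW13 cells, an established human adrenal adenocarcinoma line. All cells had received 5 µg of the plasmids Add2-Mhrt779 and Add2-Hotair, for overexpression of murine non-coding RNAs, by a lipid reagent and were collected after 48 hours; untransfected cells were not analysed here. Ribosome profiling reads the RNA that ribosomes shield from a nuclease, and RNA sequencing reads total RNA. Neither assay was replicated, and the spread between cultures is unknown. Checked against the label, 8 marker genes of the adrenal cortex were listed at 0 in both libraries, while the intermediate filament genes VIM, KRT8 and KRT18 had 707, 69.7 and 139 FPKM in ribosome profiling, against 490.2, 41.9 and 57.2 FPKM in RNA sequencing. FPKM, the deposited unit, divides a row's fragments by its length and by the library's mapped fragments.

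The families have different origins. NBPF genes, the neuroblastoma breakpoint family, encode tandem Olduvai (DUF1220) domains that multiplied in primates. GOLGA6 and GOLGA8 genes descend from golgin genes such as GOLGA2, whose product GM130 is a coiled-coil protein of the Golgi. SPDYE genes belong to the Speedy/RINGO family, named after activators of cyclin-dependent kinases such as SPDYA. GUSBP rows are pseudogenes of GUSB, the lysosomal beta-glucuronidase. NPIP genes, also called morpheus, spread over chromosome 16 in apes. In the files the rows lie mainly on 1 chromosome per family: 12 of 13 NBPF rows on chromosome 1, all GOLGA6 and GOLGA8 rows on chromosome 15, 7 of 8 SPDYE rows on chromosome 7 and both NPIP rows on chromosome 16. The GUSBP rows are spread over chromosomes 4, 5, 6, 7 and 22.

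The sequences show how alike some of the copies are. For 5 families a 60-base exon stretch is printed: of all stretches in 1 member of high RNA level, the one held by the largest number of the family's genes, with the closest stretch of other genes, aligned without gaps, below it. Sequences and their positions are from GENCODE release 29 transcripts on GRCh38, while the deposited rows use hg19 names, so a symbol need not mark the same copy in both. Capitals mark bases that differ from the first sequence of each set.

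The NBPF stretch lies in coding exon 7 of NBPF11, the current name of the NBPF24 row, at chr1:148123875-148123934 on the minus strand. It was held without a difference by 11 of the 23 NBPF genes in that release, among them NBPF1, NBPF9, NBPF10 and NBPF14. NBPF15, the current name of the NBPF16 row, differed at 1 base, NBPF3 at 6 and PDE4DIP, a centrosomal protein gene related to the NBPF genes, at 26.
NBPF11: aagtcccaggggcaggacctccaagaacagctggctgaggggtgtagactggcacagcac
NBPF15: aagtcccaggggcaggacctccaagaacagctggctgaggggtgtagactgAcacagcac
NBPF3: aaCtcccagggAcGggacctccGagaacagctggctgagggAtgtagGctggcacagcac

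The GOLGA6 stretch, in coding exon 6 of GOLGA6L10 at chr15:82345281-82345340 on the minus strand, was identical in GOLGA6L9 and GOLGA6L4 and was held by 7 of 17 GOLGA6 genes. GOLGA8A differed from it at 10 bases and GOLGA2 at 15. For GOLGA8 itself the stretch found in this way, in coding exon 1 of GOLGA8A, was shared with GOLGA8B alone, 2 of 20 GOLGA8 genes, and the closest stretches of GOLGA8T and GOLGA8S differed at 31 and 29 of 60 bases, so it is not printed.
GOLGA6L10: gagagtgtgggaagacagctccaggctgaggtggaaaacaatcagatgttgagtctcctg
GOLGA8A: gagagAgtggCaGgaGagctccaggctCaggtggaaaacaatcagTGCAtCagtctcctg
GOLGA2: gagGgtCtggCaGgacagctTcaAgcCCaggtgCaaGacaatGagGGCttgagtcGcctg

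The SPDYE stretch, in coding exon 4 of SPDYE2 at chr7:102555969-102556028 on the plus strand, was held by 8 of 23 SPDYE genes, SPDYE5 and SPDYE6 among them. SPDYE1 differed at 10 bases, SPDYE4, on chromosome 17, at 14, SPDYE8P also at 14 and SPDYE3 at 15.
SPDYE2: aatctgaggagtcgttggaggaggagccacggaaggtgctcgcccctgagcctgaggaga
SPDYE1: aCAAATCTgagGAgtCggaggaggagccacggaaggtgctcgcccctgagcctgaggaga
SPDYE4: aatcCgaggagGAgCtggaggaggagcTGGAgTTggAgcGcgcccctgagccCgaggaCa

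The GUSBP stretch, in exon 1 of GUSBP9 at chr5:71208002-71208061 on the minus strand, was identical in GUSBP1, GUSBP2, GUSBP3 and GUSBP4, and coding exon 5 of GUSB differed from it at 10 bases. It was held by 5 of the 11 GUSBP genes in the release. The closest stretch of GUSBP11 crosses a splice junction and differed at 31 of 60 bases, so it need not be the same part of the gene.
GUSBP9: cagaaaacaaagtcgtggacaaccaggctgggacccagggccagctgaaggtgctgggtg
GUSB: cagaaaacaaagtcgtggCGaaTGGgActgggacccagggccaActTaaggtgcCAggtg

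The NPIP stretch, in coding exon 1 of NPIPB3, the current name of the NPIPL3 row, at chr16:21405217-21405276 on the minus strand, was held by 17 of 22 NPIP genes. NPIPB15 differed at 2 bases.
NPIPB3: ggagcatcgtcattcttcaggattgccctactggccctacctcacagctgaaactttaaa
NPIPB15: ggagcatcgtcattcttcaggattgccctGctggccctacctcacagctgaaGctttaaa

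All 6 families were present in total RNA and were low or listed at 0 in ribosome profiling. Summed over the 52 rows, they had 18.6 FPKM in ribosome profiling, against 693 FPKM in RNA sequencing. Of the 52 rows, 46 were higher in RNA sequencing, 1 was higher in ribosome profiling and 5 were listed at 0 in both. In ribosome profiling 37 rows were listed at 0, and the highest, NBPF10, reached 5.52 FPKM. In RNA sequencing the values above 0 ran from 0.306 FPKM for GOLGA6L1 to 125 FPKM for GUSBP9. Sums by family are given first. FPKM is scaled by row length, so a sum still depends in part on how reads were divided between rows of different length.

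The NBPF rows summed to 16.5 FPKM in ribosome profiling, against 239.8 FPKM in RNA sequencing. On the log2(FPKM + 1) scale that ratio lies at -4.17 relative to the median gene, the median over the 2734 rows averaging 10 FPKM or more, and folds below are on the same scale. GOLGA6 summed to 1.82 FPKM in ribosome profiling, against 35.5 FPKM in RNA sequencing, 17.0-fold below the median gene. GOLGA8 summed to 0.274 FPKM in ribosome profiling, against 28.1 FPKM in RNA sequencing, 29.9-fold below. The remaining 3 families had no row above 0 in ribosome profiling, so they get no fold. Their sums in RNA sequencing were 104 FPKM for SPDYE, 211 FPKM for GUSBP and 74.6 FPKM for NPIP.

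**Figure D1:**
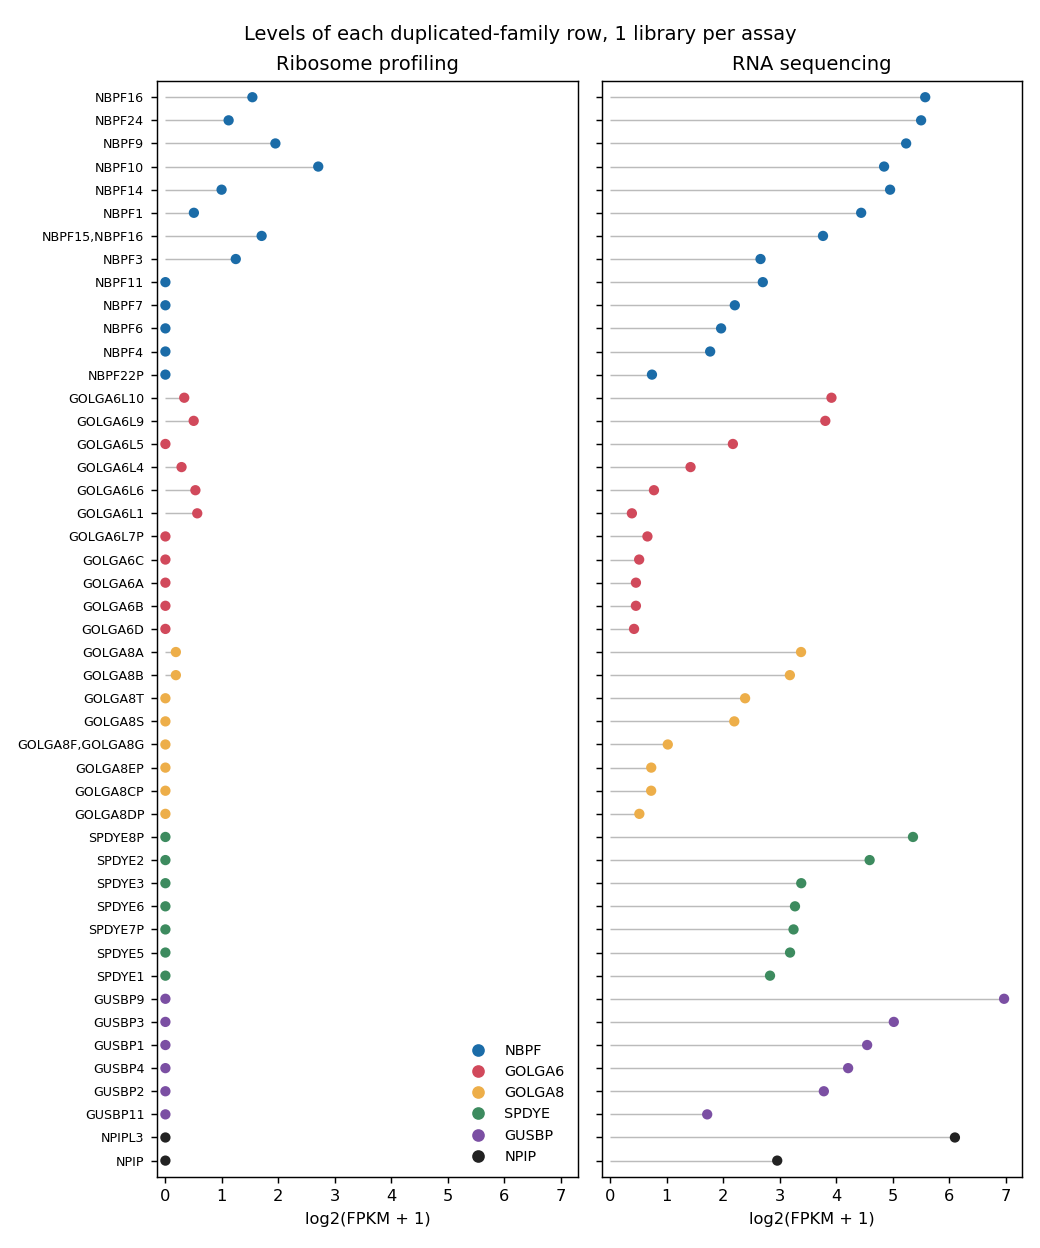
Levels of the 47 rows above 0 in either library as log2(FPKM + 1), ribosome profiling in the left panel and RNA sequencing in the right, coloured by family and ordered by mean FPKM within each. Each point is 1 row in 1 library; the ribosome profiling points of SPDYE, GUSBP and NPIP all sit at 0, and NBPF10 is the highest there at 5.52 FPKM.

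Counts of rows depend on a filter, which here kept 34 of the 52 rows, those averaging 1 FPKM or more over the libraries. All 34 lay 2-fold or more below the median gene, where 33.5% of the 10853 rows past that filter did, and none lay 2-fold above it, where 6.15% of all rows did. All 12 family rows with a mean FPKM of at least 10 were 2-fold or more below, where 19.7% of all such rows were. Of the 34, 33 were at least 4-fold below, where 12.6% of all rows were. The rows that passed had a median log2 ratio of -3.65, and all rows past the filter had one of -0.55. A row listed at 0 in ribosome profiling passes this filter only through its RNA sequencing value and must then count as low, as 22 of the 34 did, where 7.44% of all rows past the filter were listed at 0. Among rows with at least 5 FPKM in RNA sequencing, 15 of 27 family rows were listed at 0 in ribosome profiling, where 5.6% of all rows were. These values are the ones the families were picked by, and nothing is read from the counts. The other 18 rows, 5 at 0 in both libraries and 13 of low level, are described with their families.

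The authors tested 25 of the 52 rows and gave the status NOTEST to 27. Of the tested rows, 12 were called significant in the authors' deposited table, all lower in ribosome profiling, where 0.887% of the 4849 tested rows were called lower and 1.3% were called in either direction. They were 5 NBPF rows, 2 rows each of GOLGA6, GOLGA8 and SPDYE, and GUSBP9, and they were 12 of the 43 rows called lower in the authors' deposited table. That comparison is also the one the families were picked from, and its error is the authors' model error between single libraries.

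**Figure D2:**
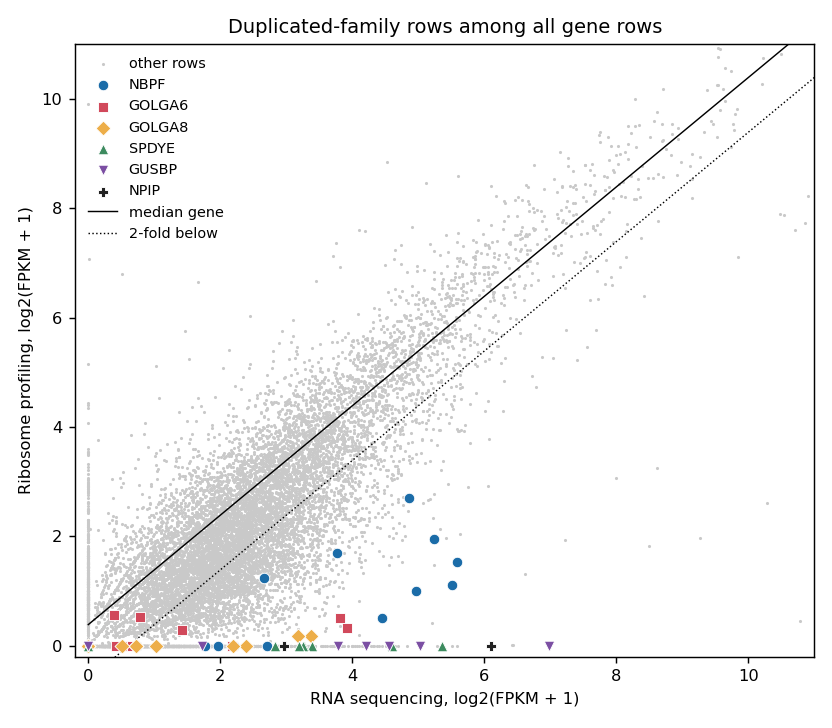
Each row of the table at its RNA sequencing level (x) and ribosome profiling level (y), both log2(FPKM + 1), with small RNA genes left out, axes ended at 11 and the 52 family rows in colour. The solid line is the median gene and the dotted line lies 2-fold below it; all 34 family rows with a mean FPKM of at least 1 lie under the dotted line.

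Among the NBPF rows, 8 of 13 had a value above 0 in ribosome profiling, the most of any family. NBPF16, on chromosome 1 from 148739442 to 148758311 in hg19, had 1.91 FPKM in ribosome profiling, against 46.8 FPKM in RNA sequencing, 21.5-fold below the median gene. NBPF24, from 147574323 to 147624601, had 1.17 FPKM in ribosome profiling, against 44.4 FPKM in RNA sequencing, 27.4-fold below. It had the smallest q-value of the NBPF rows in the authors' deposited table, 2.79e-05 (log2 ratio -5.24, standard error 0.96).

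NBPF9 had 2.86 FPKM in ribosome profiling and 36.8 FPKM in RNA sequencing, 12.8-fold below the median gene. NBPF14 had 0.992 and 30.1 FPKM in the ribosome profiling and RNA sequencing libraries, 20.4-fold below, and NBPF1, which lies far from these on the short arm of the chromosome, had 0.418 and 20.8 FPKM, 20.1-fold below. All of these were called in the authors' deposited table, with q-values of 0.0473 for NBPF9, 0.0161 for NBPF14 and 0.0363 for NBPF1. The 5 NBPF rows called in the authors' deposited table thus lay between 12.8-fold and 27.4-fold below the median gene.

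NBPF10 stood closer to other genes, at 5.52 FPKM in ribosome profiling, against 27.8 FPKM in RNA sequencing, 5.79-fold below the median gene. The authors' deposited table did not call it (log2 ratio -2.33, standard error 1.01, q = 0.243). The joint row of NBPF15 and NBPF16 had 2.26 FPKM in ribosome profiling, against 12.6 FPKM in RNA sequencing, and it was not called either (q = 0.216 in the authors' deposited table). NBPF3 had 1.37 FPKM in ribosome profiling, against 5.33 FPKM in RNA sequencing, a log2 ratio of -1.81 to the median gene, the ratio nearest to the median gene among the NBPF rows with a mean FPKM of at least 1. Its standard error in the authors' deposited table was 1.21 on the log2 scale, and that of NBPF1 was 1.59, so the order of NBPF rows by ratio is uncertain.

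The other 5 NBPF rows were listed at 0 in ribosome profiling. NBPF11 had 5.51 FPKM in RNA sequencing, NBPF7 had 3.62, NBPF6 had 2.90, NBPF4 had 2.41 and the pseudogene NBPF22P, the only NBPF row outside chromosome 1, had 0.671. NBPF11 and NBPF24 share 1 locus in the table and are 1 gene under current names. Added up, they had 1.17 FPKM in ribosome profiling, against 49.95 FPKM in RNA sequencing, 30.7-fold below the median gene. The row of NBPF16 and the joint row of NBPF15 and NBPF16, likewise 1 gene today, came to 4.16 FPKM in ribosome profiling, against 59.4 FPKM in RNA sequencing, 15.3-fold below.

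GOLGA6 levels were carried by GOLGA6L10 and GOLGA6L9, neighbours on chromosome 15 from 83009407 to 83018198 and from 83098710 to 83108111 in hg19. GOLGA6L10 had 0.260 FPKM in ribosome profiling, against 14.1 FPKM in RNA sequencing, 15.7-fold below the median gene. GOLGA6L9 had 0.415 FPKM in ribosome profiling, against 13.0 FPKM in RNA sequencing, 13.0-fold below. The authors' deposited table called both, with q-values of 0.0161 for GOLGA6L10 and 0.00142 for GOLGA6L9. Together they held 76.6% of the GOLGA6 sum in RNA sequencing.

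The other 9 GOLGA6 rows were low in both libraries. GOLGA6L5, a transcribed pseudogene, was listed at 0 in ribosome profiling and had 3.51 FPKM in RNA sequencing, and GOLGA6L4 had 0.219 FPKM in ribosome profiling, against 1.68 FPKM in RNA sequencing. GOLGA6L6 had 0.445 FPKM in ribosome profiling, against 0.713 FPKM in RNA sequencing. GOLGA6L1 was the row higher in ribosome profiling as deposited, with 0.478 FPKM there, against 0.306 FPKM in RNA sequencing. GOLGA6A, GOLGA6B, GOLGA6C, GOLGA6D and GOLGA6L7P were listed at 0 in ribosome profiling and had between 0.342 and 0.581 FPKM in RNA sequencing.

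Such low rows rest on very few fragments. Of 1011 rows in the whole table above 0 in both libraries with a mean FPKM under 1, 128 had exactly the same deposited ratio, 0.64 on the log2 scale, and 70.0% lay at that value plus the log2 of a ratio of whole numbers up to 12, within 0.001. On that reading 1 fragment was worth 1.56 times as many FPKM in ribosome profiling as in RNA sequencing. GOLGA6L1 then lay at 1 fragment in ribosome profiling for each 1 in RNA sequencing, GOLGA6L6 at 2 for each 5 and GOLGA6L4 at 1 for each 12. These are smallest ratios, and the numbers of fragments themselves are unknown.

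GOLGA8A and GOLGA8B, on chromosome 15 from 34671270 to 34729667 and from 34817484 to 34875771 in hg19, were close to each other in both libraries. GOLGA8A had 0.137 FPKM in ribosome profiling, against 9.41 FPKM in RNA sequencing, a log2 ratio of -3.58 to the median gene. GOLGA8B had 0.137 FPKM in ribosome profiling, against 8.08 FPKM in RNA sequencing, a log2 ratio of -3.39. The authors' deposited table called GOLGA8A (log2 ratio -6.10, standard error 1.54) and GOLGA8B (log2 ratio -5.88, standard error 1.57). No other GOLGA8 row was above 0 in ribosome profiling. GOLGA8T had 4.24 FPKM in RNA sequencing, GOLGA8S had 3.59, the joint row of GOLGA8F and GOLGA8G had 1.03, and the pseudogenes GOLGA8EP, GOLGA8CP and GOLGA8DP had 0.657, 0.655 and 0.432. GOLGA8G alone and GOLGA8I were listed at 0 in both libraries.

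No SPDYE row was above 0 in ribosome profiling. SPDYE8P had 40.1 FPKM in RNA sequencing and SPDYE2 had 23.2 FPKM, and these were the SPDYE rows called in the authors' deposited table, with q-values of 0.00358 and 0.0346. SPDYE3 had 9.44 FPKM in RNA sequencing, SPDYE6 had 8.67, the pseudogene SPDYE7P had 8.50, SPDYE5 had 8.10 and SPDYE1 had 6.12. None of these was called, with q-values between 0.191 and 0.196 in the authors' deposited table. SPDYE4, the SPDYE gene on chromosome 17, was listed at 0 in both libraries.

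GUSBP9, on chromosome 5 from 70516053 to 70555122 in hg19, was listed at 0 in ribosome profiling and had 125 FPKM in RNA sequencing, the highest value of the 52 rows and 59.0% of the GUSBP sum. The authors' deposited table called it (q = 0.0387). Its longest annotated transcript has 584 nt, and a short transcript gains more FPKM per fragment than a long one. GUSBP3 had 31.5 FPKM in RNA sequencing, GUSBP1 had 22.4, GUSBP4 had 17.6, GUSBP2 had 12.8 and GUSBP11 had 2.29, all listed at 0 in ribosome profiling. The q-values of the first 4 of these ran from 0.191 to 0.223 in the authors' deposited table. GUSBP5 and GUSBP10 were listed at 0 in both libraries.

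NPIPL3, on chromosome 16 from 21413455 to 21436658 in hg19, was listed at 0 in ribosome profiling and had 67.8 FPKM in RNA sequencing. NPIP had 6.77 FPKM in RNA sequencing and was likewise listed at 0 in ribosome profiling. Neither was called, with q-values of 0.292 and 0.293 in the authors' deposited table. NPIPL3 had a larger RNA sequencing value than any NBPF row.

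**Figure D3:**
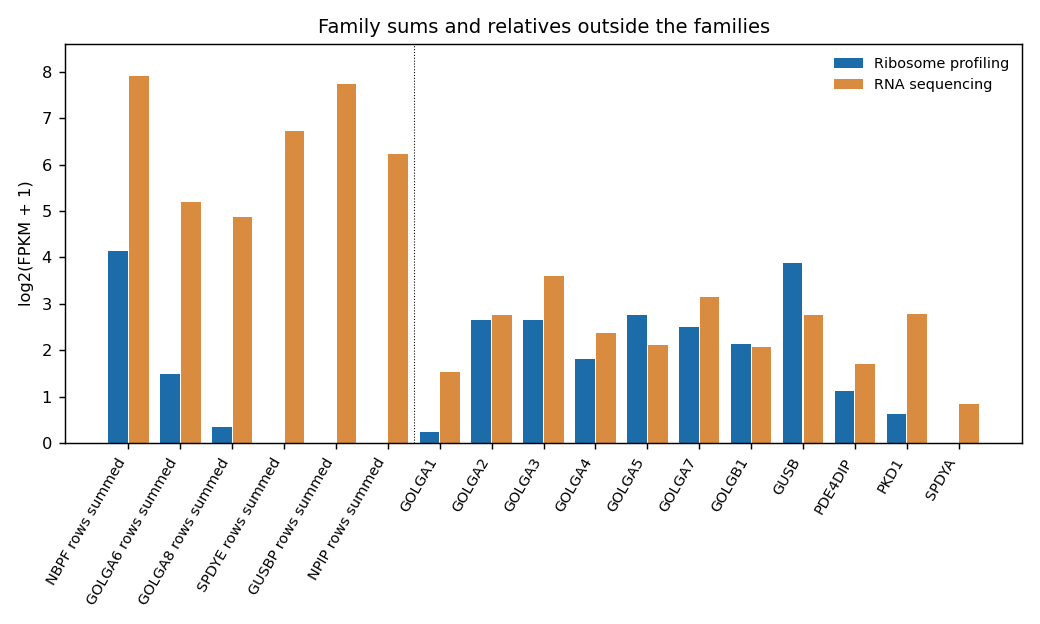
Levels as log2(FPKM + 1) in ribosome profiling (left bar of each pair) and RNA sequencing (right bar), for the rows of each family summed and, right of the dotted line, for 11 related genes outside the families. The SPDYE, GUSBP and NPIP sums have no ribosome profiling bar because every row was listed at 0, while GUSB stands at 13.6 FPKM in ribosome profiling.

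A list of 11 genes outside the families was described next. They are called related here, though shared descent with a family was not checked for each. PKD1 is listed for its pseudogene copies in the chromosome 16 duplications, and GOLGA7 shares the GOLGA symbol. GUSB, the enzyme gene from which the GUSBP rows derive, had 13.6 FPKM in ribosome profiling, against 5.82 FPKM in RNA sequencing, 1.64-fold above the median gene. GOLGA2 had 5.33 FPKM in ribosome profiling, against 5.74 FPKM in RNA sequencing, 1.39-fold below, with the sign turned when the median gene was set by rows averaging 1 FPKM or more. The Golgi coiled-coil genes GOLGA5 and GOLGB1, which encode golgin-84 and giantin, had 5.79 and 3.41 FPKM in ribosome profiling, against 3.30 and 3.20 FPKM in RNA sequencing. The authors' deposited table called neither GUSB nor GOLGA2 and lists GOLGA5 and GOLGB1 as NOTEST, with standard errors from 0.85 to 0.97 on the log2 scale for these 4 genes.

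GOLGA3 had 5.25 FPKM in ribosome profiling, against 11.1 FPKM in RNA sequencing, 2.55-fold below the median gene. GOLGA4 had 2.49 and 4.20 FPKM in the ribosome profiling and RNA sequencing libraries, 1.95-fold below, and GOLGA7, which encodes a partner of a palmitoyltransferase, had 4.65 and 7.83 FPKM, 2.05-fold below. GOLGA1 was lower, at 0.185 FPKM in ribosome profiling, against 1.90 FPKM in RNA sequencing. PDE4DIP had 1.17 FPKM in ribosome profiling, against 2.24 FPKM in RNA sequencing, and SPDYA was listed at 0 in ribosome profiling with 0.792 FPKM in RNA sequencing. PKD1, the polycystin gene with pseudogene copies in the chromosome 16 duplications, had 0.540 FPKM in ribosome profiling, against 5.85 FPKM in RNA sequencing, and was called in the authors' deposited table (log2 ratio -3.44, standard error 0.88, q = 0.0127). Of the 10 related genes past the same filter, 4 lay 2-fold or more below the median gene, where 33.5% of all rows did. These were GOLGA1, GOLGA3, GOLGA7 and PKD1. The median log2 ratio of the 10 was -0.97, and that of all rows past the filter was -0.55. The other 6 related genes lay within 2-fold of the median gene. Without centring GOLGA3 and GOLGA7 came within 2-fold too, while GUSB passed 2-fold above, at 1.10 on the log2 scale. With a pseudocount of 0.1 GOLGA4 and PDE4DIP passed 2-fold below, at -1.14 and -1.29 on the log2 scale.

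Many rows of other duplicated genes were low as well. In a list of them, made with earlier results of these data known, 117 rows averaged 1 FPKM or more. Of these, 88 lay 2-fold or more below the median gene, where 33.5% of all rows past that filter did. A further 3 lay 2-fold or more above it, where 6.15% of all rows did. Rows listed at 0 in ribosome profiling, such as SULT1A3 and PMS2P4, passed the filter through RNA sequencing alone and had to count as low. Without the filter, 56 of the 212 rows on the list were at 0 in ribosome profiling alone, where 3096 of all 23608 rows were. The median log2 ratio of the 117 was -2.05, and that of all rows past the filter was -0.55. No such share over all rows is at hand for sums by prefix. After summing rows by symbol prefix, 22 of the 30 prefixes whose library sums added up to at least 10 FPKM were 2-fold or more below, 2 were 2-fold or more above and 6 lay between. The row SMN2 is one of the 22 and the joint row of SMN1 and SMN2, at the same locus, is one of the 2. The LRRC37 rows, for example, summed to 0.834 FPKM in ribosome profiling, against 28.2 FPKM in RNA sequencing, and the ANKRD36 rows to 0.292 FPKM in ribosome profiling, against 21.5 FPKM in RNA sequencing. PKD1P1 had 0.284 FPKM in ribosome profiling, against 13.1 FPKM in RNA sequencing. In contrast the PPIAL4 rows, copies of a cyclophilin gene, summed to 809 FPKM in ribosome profiling, against 747 FPKM in RNA sequencing, and GTF2IP1 had 65.5 FPKM in ribosome profiling, against 58.7 FPKM in RNA sequencing.

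The genes around the family rows were described in the same way. Within 100 kb in hg19 lay 97 rows of other genes with a mean FPKM of at least 1, with a median log2 ratio of -0.91. Of these, 46 (47.4%) lay 2-fold or more below the median gene, where 33.5% of all rows did. In ribosome profiling 19 of the 97 were listed at 0, where 7.44% of all rows were, and had to count as low. The 2 that lay 2-fold or more above, where 6.15% of all rows did, were PHGDH and ARIH1. PHGDH, near NBPF7, had 30.1 FPKM in ribosome profiling, against 5.50 FPKM in RNA sequencing. ARIH1, near GOLGA6B, had 191 FPKM in ribosome profiling, against 17.2 FPKM in RNA sequencing. Of the 7 rows whose listed interval overlaps that of a family row, 6 were 2-fold or more below and 2 were listed at 0 in ribosome profiling. Rows of several genes can be listed at 1 interval, as PMS2L2 and SPDYE8P are. Overlap and distance here are therefore between listed intervals and need not hold for the genes. Of all these neighbours, 16 of the 20 from other duplicated families were that low and 30 of the other 77 (39.0%), beside the 33.5% of all rows. PMS2L2, a mismatch repair gene copy listed at the same interval as SPDYE8P, had 29.4 FPKM in ribosome profiling, against 104.7 FPKM in RNA sequencing. POLR2J3, near SPDYE2, had 2.34 FPKM in ribosome profiling, against 20.3 FPKM in RNA sequencing. Nearer to the median gene, though below it, were PPIAL4F and GTF2H2D. Near NBPF16, PPIAL4F had 65.2 FPKM in ribosome profiling, against 70.3 FPKM in RNA sequencing. Near GUSBP3, GTF2H2D, a transcription factor IIH subunit gene copy, had 7.56 FPKM in ribosome profiling, against 7.42 FPKM in RNA sequencing, and its joint row with GTF2H2C was listed at 0 in ribosome profiling, against 3.67 FPKM in RNA sequencing. Overlapping genes and copies may share reads with the family rows, and whether the counting used strand is not given in the sources used here. The neighbours named here were chosen after their values were seen.

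The SMN rows of that 1 locus went opposite ways. The row SMN2, a motor neuron survival gene of a chromosome 5 duplication, had 0.150 FPKM in ribosome profiling, against 16.1 FPKM in RNA sequencing, while the joint row of SMN1 and SMN2 had 32.5 FPKM in ribosome profiling, against 11.4 FPKM in RNA sequencing. Together they had 32.7 FPKM in ribosome profiling and 27.5 FPKM in RNA sequencing, 1.11-fold below the median gene. The 6 families were picked for low values, so their own sums are no counterpart to this pair.

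How much sequence the copies share was measured from GENCODE release 29 transcripts, as the share of a gene's 30-base words that also occur in a gene of another name. For 51 of the 52 rows, matched to 49 genes, the median share was 82.0%, and it was 2.34% over 10145 other rows with a mean FPKM of at least 1. With 50-base words the median of the family rows was 74.9%. The median by family was 90.7% for GOLGA8, 89.1% for GOLGA6, 77.7% for SPDYE, 74.3% for NBPF and 55.6% for GUSBP, and the share of NPIPL3 was 98.1%. NPIP, an older name of several current genes, was left unmatched.

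Of the 51 matched rows, 28 shared at least 80% of their words and 8 shared under 50%. A high share was thus not found in every low row. GUSBP1 shared 19.6% of its words, NBPF7 shared 16.0% and NBPF1 shared 30.9%. Their ribosome profiling values were 0, 0 and 0.418 FPKM, against 22.4, 3.62 and 20.8 FPKM in RNA sequencing. GUSBP1 and NBPF1 still hold the 60-base stretch printed for their family, so a low share does not mean that all their reads are unique. NBPF3, with 27.5% shared, was the NBPF row nearest to the median gene, but NBPF10, with 90.4% shared, came next among single-gene rows with a value in both libraries. Among rows outside the families, 48.0% of the 202 rows with at least 80% of words shared lay 2-fold or more below the median gene and 23.8% were listed at 0 in ribosome profiling. For the 8091 rows with under 10% shared these were 31.6% and 5.08%. The part of shared sequence in the low values was not tested.

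**Figure D4:**
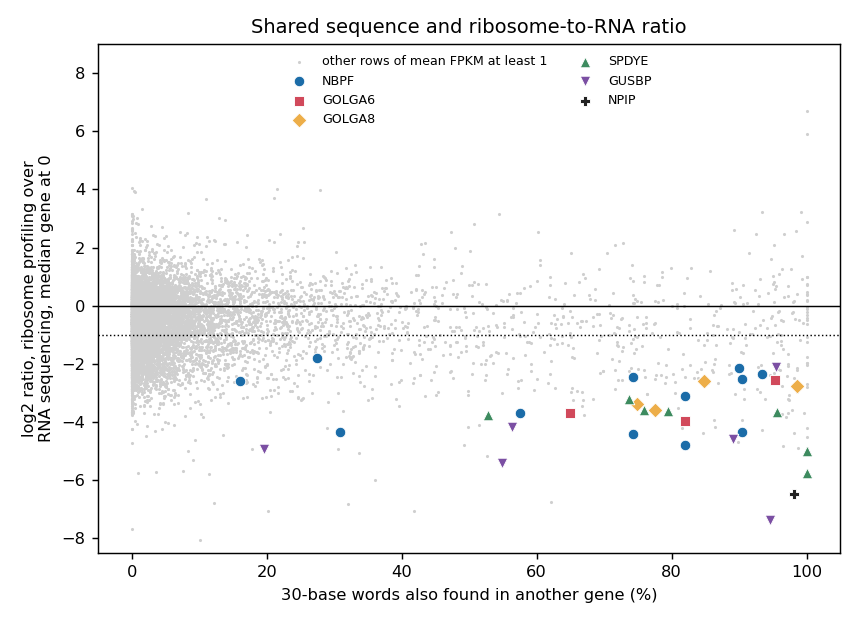
Share of 30-base words also found in a gene of another name (x, percent) against the log2 ratio between the libraries, ribosome profiling over RNA sequencing, with the median gene at 0 (y), for rows with a mean FPKM of at least 1; rows listed at 0 are placed by the pseudocount of 1. Family rows are coloured, with GUSBP1 at 19.6% and NBPF1 at 30.9%. They lie below the dotted line at 2-fold, but the families were picked for low ratios, so nothing is read from this.

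All of the ribosome profiling signal of the families, 18.6 FPKM, lay in rows of protein-coding genes, and 16.5 FPKM of it in NBPF rows. By RefSeq gene type, 35 of the 52 rows are protein-coding and 16 are pseudogenes, NBPF7 among them, and NPIP was unmatched. SPDYE8P and GOLGA6L7P count as protein-coding under their current names, SPDYE8 and GOLGA6L7. The coding rows summed to 18.6 FPKM in ribosome profiling, against 457 FPKM in RNA sequencing, and 15 of them had a value above 0 in both libraries. Another 18 coding rows were listed at 0 in ribosome profiling alone and 2 in both libraries. No pseudogene row was above 0 in ribosome profiling, while together they had 229 FPKM in RNA sequencing, most of it in GUSBP rows. Outside the families, 46.1% of 269 pseudogene rows and 31.4% of 9713 protein-coding rows averaging 1 FPKM or more lay 2-fold or more below the median gene, and 16.7% and 5.12% were listed at 0 in ribosome profiling. All 24 coding family rows and all 9 pseudogene family rows past that filter were at least 2-fold below. The 9 were listed at 0 in ribosome profiling, so they passed the filter through RNA sequencing alone and had to count as low. The same holds for coding family rows listed at 0 there. The families were also picked by these values, and nothing is read from the 24 and the 9. The part of gene type in the low values was not tested.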

How the data were processed

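Per the labels, 1 ribosome profiling and 1 RNA sequencing library were made from SW13 cells transfected at 80% confluence, read from both ends at 50 nt. The deposited table gives FPKM per gene row, computed by the authors, with their log2 ratio, test statistic, p-value, q-value and call. Per the submitters' processing notes, TopHat2 2.0.8b, Bowtie2 2.0.0.6, SAMtools 0.1.18, bedtools 2.16.1, hg19 and mm10 were used; no source used here gives the program that wrote the table, its scaling or how it treated reads with several matches. The number of fragments behind a value is unknown, so no counting interval is given.

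Ratios are differences in log2(FPKM + 1), ribosome profiling minus RNA sequencing, less the median difference of 0.39 over the 2734 rows averaging 10 FPKM or more, without rows of status FAIL or HIDATA. The pseudocount understates the ratio of low rows. Standard errors are the size of the authors' log2 ratio over that of their statistic and hold no spread between cultures. Rows listed at 0 enter counts and sums but get no fold. Coordinates from the table are hg19 intervals, with the first base written as 1, and 1 interval can be listed for rows of several genes. Shared words were counted on the transcript strand over all GENCODE release 29 transcripts, where readthrough genes add to the shares; this step and the centring were tested on simulated data. Gene types are from RefSeq on GRCh38.p14, matched by symbol or older name.

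Named by rule were, in each family, the 3 rows of highest mean FPKM, all rows called by the authors and, where the mean FPKM reached 1, the highest and lowest ratio and rows listed at 0 in 1 library, besides 11 related genes. The remaining rows are given to account for every member, and genes of other duplicated families and neighbours were picked after their values were seen. Members and lists were chosen with earlier results of these data known. Python 3.11.15, numpy 2.4.6, pandas 2.3.3 and matplotlib 3.10.9 were used.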

Additional observations from a re-analysis of the deposited data

How the results depend on the processing

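With 1 library per assay and no fragment numbers, these values cannot show how far the families would vary between cultures. The alternatives were pseudocounts of 0.1 and 5 FPKM, a median gene set by rows with a mean FPKM of at least 1 or 30, by status OK rows or without small RNA genes, no centring, and, for family sums, status OK rows alone, rows naming the family alone and the sum without its highest row. No family sum came within 2-fold of the median gene in any of them, but the families were picked for low ratios. For SPDYE, GUSBP and NPIP the ribosome profiling sum is 0, so their ratio is set by the pseudocount and the RNA sequencing sum alone. Ranges are therefore given for the other families only. The log2 ratio ranged from -4.35 to -3.63 for NBPF, from -4.62 to -2.90 for GOLGA6 and from -6.65 to -2.98 for GOLGA8. Of 34 rows at least 2-fold lower, 33 were at least 4-fold lower, where 12.6% of all rows past that filter were. A filter of 10 FPKM leaves fewer rows, and the count was then 12 of 12, where 19.7% of all such rows were 2-fold lower. Over family rows above 0 in either library, which leaves out 5 of the 52, it was 40. No share over all rows is at hand for that setting. Rows listed at 0 in ribosome profiling count as low only through their RNA sequencing value. With a pseudocount of 5, which shrinks low values, NBPF6, NBPF4, GUSBP11, GOLGA1, GOLGA3 and GOLGA7 no longer passed 2-fold. GOLGA4 and PDE4DIP passed 2-fold below with a pseudocount of 0.1 and with the median gene set at 30 FPKM. GUSB passed 2-fold above without centring, at 1.10, and with the median gene set at 1 FPKM, at 1.26. Among related genes, the sign turned for GOLGA2, to 0.067 with the median gene set at 1 FPKM, and for GOLGB1, to 0.23 there and 0.070 without centring. No paired analysis was possible because each assay has 1 library.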
